A study of Danio rerio with 18 samples.

Results

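The genes described here carry Hedgehog signalling: the ligands shha, shhb, ihha, ihhb and dhh, the receptor ptch1, the transducer smo and the target or feedback genes gli1 and hhip, in regenerating zebrafish caudal fins. They were chosen by name, with earlier results of these data known. Matching symbols with case ignored, and accepting a symbol without its a or b letter, gave 9 gene identifiers of the 32520 in the table, for 8 of the 9 names. No identifier carried the symbol dhh, which is not analysed here. 7 of the 9 identifiers reached a normalised read count of 10 in at least 3 of the 18 libraries and were tested among 22779 genes. Of the pair annotated SHH, ENSDARG00000068567 was tested and ENSDARG00000038867 was not. The names given do not say which is shha and which shhb, and the untested identifier annotated IHH, ENSDARG00000037062, is likewise not tied to a letter.

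Hedgehog ligands are secreted proteins that bind the receptor Patched. Without ligand, Patched keeps the membrane protein Smoothened inactive; bound by ligand it releases Smoothened, and Gli transcription factors then switch on target genes, among them Patched genes and gli1 themselves. In the growing fin, sonic hedgehog is known from the basal epidermis near the ray tips and Indian hedgehog from bone-forming cells.

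KO fish were homozygous for a knockout of s1, a silencer associated with regeneration, on the Ekkwill (EK) background, and the WT fish were their siblings. All were about 4 to 8 months old. Fins were cut at 50% of their length, and tissue was taken at 0 days post amputation (dpa; the fresh cut), 1 dpa and 4 dpa. Each library came from a pool of 10 fish, giving 6 groups (KO and WT at the 3 times) of 3 pools. A silencer leaves no transcript of its own, so its deletion was not checked in these data.

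Values are the authors' size-factor-scaled read counts, called signal below; they are not divided by gene length, so levels are compared between samples and not between genes. Libraries held 58.6 M to 155 M reads. The 5 most abundant genes took 2.71% to 90.5% of them, and 4 libraries stood apart with a share under 20%: KO 0 dpa replicate 2, KO 1 dpa replicate 1, and WT 0 dpa replicates 2 and 3. Outside these 5 genes, depth was lowest at 4 dpa, at 16.4 M to 19.7 M reads in KO and 10.5 M to 10.9 M in WT. A count of 3 reads, used as a floor for counting error only, corresponded to a signal of about 7.4 in the WT 4 dpa libraries. Of all values from 1 to 20 reads, 76.2% to 87.4% per library were even numbers; sequencing was paired-end, and whether both reads of a pair were counted is not given in the sources used here. Counts below are therefore reads, not independent molecules. Markers of lens, retina, liver and pancreas were low, none of the 11 identifiers averaging above 20.2, but 4 of them were tested. At 4 over 0 dpa 1 of these 4 rose in KO and 1 fell in WT by the test described below (23.3% and 29.6% of all tested genes). The tested SHH identifier, with a mean signal of 13.4, and ihhb, with 22.9, did not stand clear of the highest of these markers. In whole-fin RNA, more cells of a type and more RNA per cell cannot be told apart.

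By the test PTCH1, GLI1, HHIP and the tested SHH identifier rose by 4 dpa in both genotypes, and no member differed between KO and WT. The HHIP call in WT and the SHH calls in both genotypes were lost under several other settings. ihhb signals were highest at 1 dpa, but their rise from 0 dpa was called in WT only, and not without the low-share libraries. Tests were limma's, with p-values adjusted over all tested genes and a threshold of 0.05. At 4 over 0 dpa 4 of the 7 tested members rose and none fell in each genotype, where 49% of all tested genes were called in KO (23.3% as higher) and 55.6% in WT (25.9% as higher). Between 0 and 1 dpa 1 of 7 was called in KO (29.3% of all genes) and 2 of 7 in WT (40.2%), and at 4 over 1 dpa 5 of 7 in KO (27.9%) and 4 of 7 in WT (13.8%). The members' ranges did not overlap between 4 and 0 dpa for 4 of 7 in KO and 4 of 7 in WT (59.9% and 58.6% of all genes), between 1 and 0 dpa for 2 in KO and 3 in WT (37.1% and 51.7%), and between 4 and 1 dpa for 6 in KO and 4 in WT (49.6% and 42.6%). The 4 in WT between 4 and 0 dpa include SHH, whose gap rests on a library of 2 reads. SHH would not have passed the filter for testing without its 4 dpa libraries, so its place among the members that rose leans on that filter. Over 4 against 0 dpa the members' median log2 change was 0.53 in KO and 0.44 in WT, against -0.02 and -0.03 over all tested genes in KO and WT. These medians include SHH, with a log2 change of 2.04 in KO and 2.53 in WT, and so lean on the same filter. At 4 over 0 and 1 over 0 dpa so much of the table was called that the count of calls alone does not set the members apart. At 4 over 1 dpa the members were called more often than all genes, which was not tested, in a list chosen with earlier results known. SHH is among the 5 members called there in KO. Each member's own values follow by role.

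PTCH1, a Patched receptor gene that is also a target of the pathway it restrains, rose by 4 dpa in both genotypes. In KO fins PTCH1 (ENSDARG00000016404) had signals of 741, 273 and 508 at 0 dpa, 522, 917 and 847 at 1 dpa, and 2209.7, 2142 and 2458 at 4 dpa. In WT fins it had 717, 370.5 and 379 at 0 dpa, 871, 779 and 1104 at 1 dpa, and 1786, 2145 and 2224 at 4 dpa. Every 4 dpa library lay above every library of the earlier times, and the KO and WT ranges overlapped at each time. The mean was 2269.8 ± 166 in KO and 2052 ± 233 in WT at 4 dpa, against 508 ± 234 in KO and 489 ± 198 in WT at 0 dpa (SD, n = 3 each). The change from 0 to 4 dpa was a log2 of 2.27 in KO (95% interval 1.59 to 2.95, adjusted p = 4.06e-05) and 2.13 in WT (1.45 to 2.81, adjusted p = 7.01e-05), which is 4.83-fold and 4.38-fold in limma's fit.

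In KO the larger part of the PTCH1 rise lay between 1 and 4 dpa. In WT the changes before and after 1 dpa were of similar size with all libraries and no covariate, but not without the low-share libraries. The changes before and after 1 dpa were not compared by a test, and no interaction of genotype with time was called for PTCH1 in limma. The log2 change at 4 over 1 dpa was 1.61 in KO (adjusted p = 0.00186) and 1.17 in WT (limma, adjusted p = 0.0236). For 1 over 0 dpa it was 0.66 in KO, which missed the threshold (adjusted p = 0.138), and 0.96 in WT, which passed it (adjusted p = 0.0257). The call in WT at 1 over 0 dpa was lost without the low-share libraries (log2 0.34, adjusted p = 0.302) and with the share as a covariate (log2 0.06, adjusted p = 0.833), while the KO value then passed (log2 0.52, adjusted p = 0.0449) without those libraries. At 4 over 1 dpa the log2 change without the low-share libraries was 1.36 in KO and 1.17 in WT. With the share as a covariate it was 1.30 in KO and 1.05 in WT. The 3 low-share 0 dpa libraries held the 3 lowest PTCH1 signals of their time, at 273 in KO and 370.5 and 379 in WT. The part of this share in the difference at 1 dpa was not tested further. The change from 0 to 4 dpa stayed called in all 17 alternatives in each genotype, with log2 values of 1.60 to 2.60 in KO and 1.11 to 2.44 in WT. Its size depended on the share: the lowest values, 1.60 in KO and 1.11 in WT, came with the share as a covariate. Without the low-share libraries the change was 1.88 in KO and 1.51 in WT. Leaving out single libraries ended the WT call at 4 over 1 dpa for WT 1 dpa replicate 1 (log2 1.14, adjusted p = 0.0838) and 2 (1.06, 0.101) and for WT 4 dpa replicate 2 (1.13, 0.0708) and 3 (1.11, 0.0767). It ended the WT call at 1 over 0 dpa for WT 0 dpa replicate 2 (0.80, 0.11) and 3 (0.82, 0.104) and WT 1 dpa replicate 1 (0.99, 0.0529) and 3 (0.82, 0.101). Without KO 0 dpa replicate 1, PTCH1 was called at 1 over 0 dpa in KO (0.99, 0.0274).

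**Figure D1:**
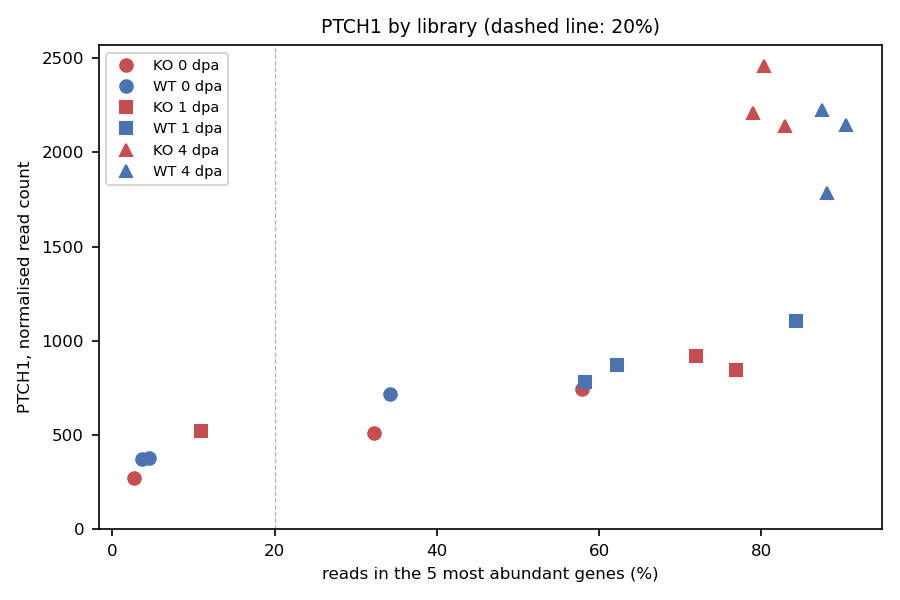
PTCH1 normalised read count (linear axis from 0) against the percent of a library's reads in its 5 most abundant genes, with a point per library, KO red and WT blue, circles for 0, squares for 1 and triangles for 4 dpa; the dashed line marks 20%. The 4 low-share libraries, left of the line, held the lowest PTCH1 signals of their time.

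**Figure D2:**
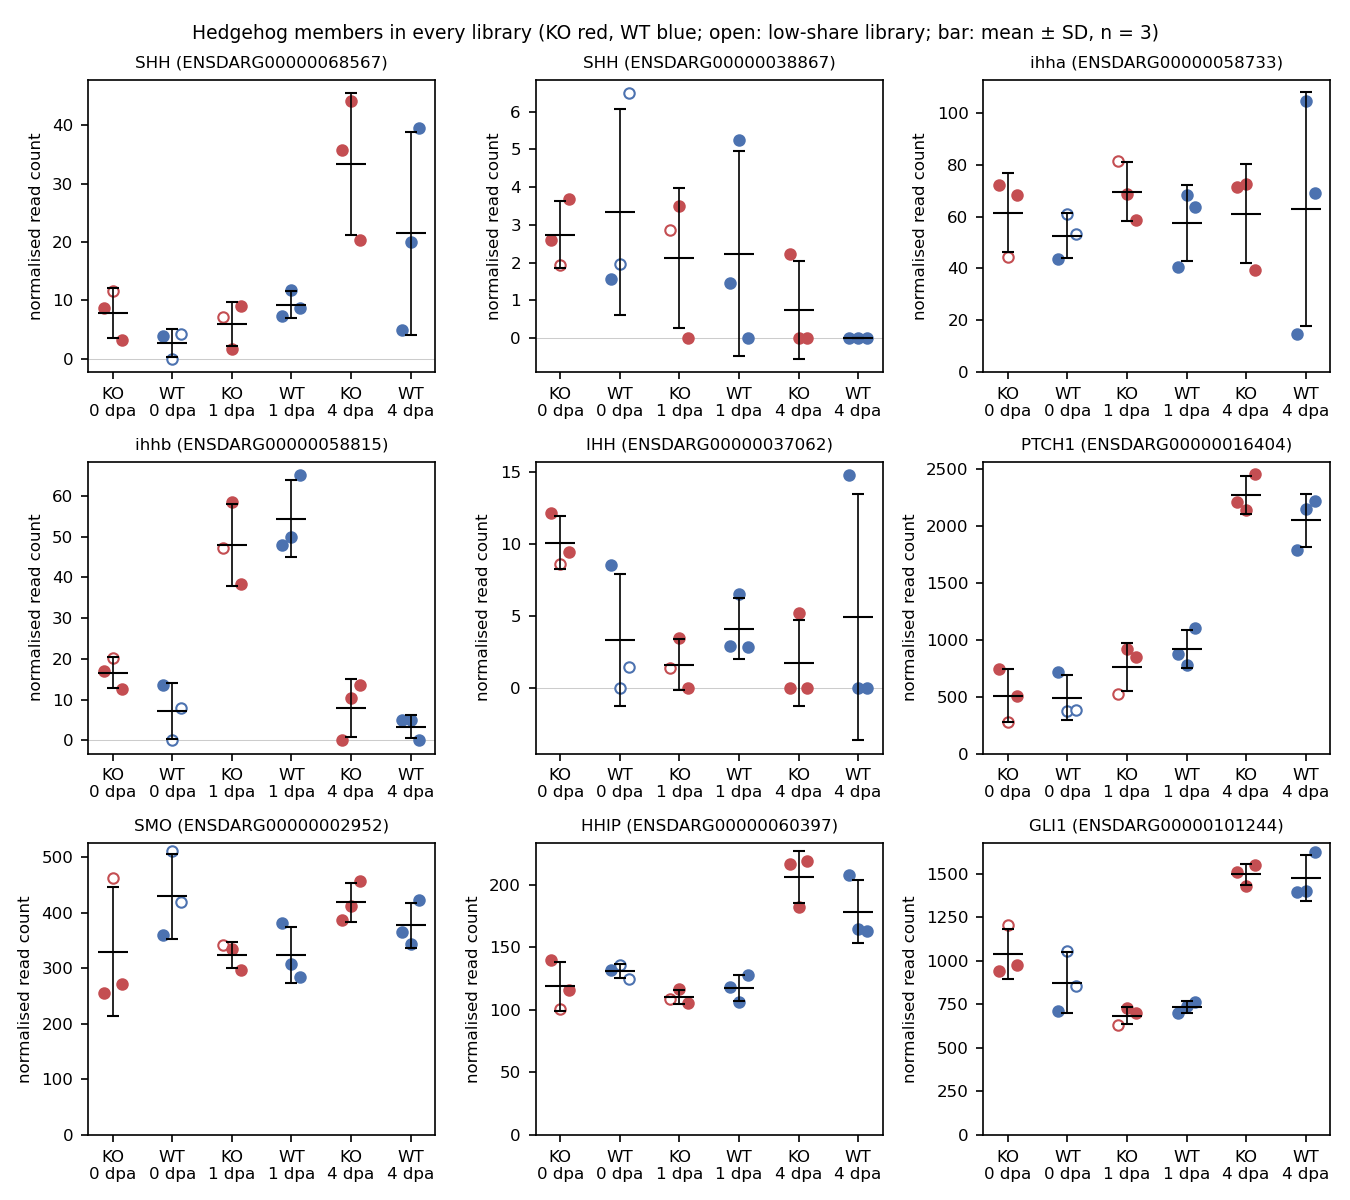
Normalised read count (linear axis from 0 or just below) of the 9 Hedgehog identifiers in each library, with KO (red) left of WT (blue) at 0, 1 and 4 dpa; open points are libraries with under 20% of reads in the 5 most abundant genes, and bars give the mean ± SD of 3 pools. PTCH1, HHIP and GLI1 were highest at 4 dpa in both genotypes, ihhb was highest at 1 dpa, and KO and WT points overlapped for the 7 tested identifiers at each time.

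SMO, the membrane protein that Patched holds inactive, passed the test in none of the 10 comparisons of groups or in the interactions. In KO fins SMO (ENSDARG00000002952) had signals of 256, 464 and 271 at 0 dpa, 342, 334 and 297 at 1 dpa, and 388, 413 and 457 at 4 dpa. In WT fins it had 359, 511 and 419 at 0 dpa, 381, 309 and 284 at 1 dpa, and 366, 344 and 423 at 4 dpa. The 4 dpa and 0 dpa ranges overlapped in both genotypes. At 4 over 0 dpa the log2 change was 0.39 in KO (95% interval -0.05 to 0.84) and -0.18 in WT (-0.62 to 0.27). The KO value passed the test without the low-share libraries (log2 0.67, adjusted p = 0.0028), of which KO 0 dpa replicate 2 held the highest KO signal of that time. The WT value was then 0.07 (adjusted p = 0.83). The KO change also passed in limma with quantile normalization (log2 0.51, adjusted p = 0.0352), with the share covariate (0.72, 0.00158) and without KO 0 dpa replicate 2 alone (0.67, 0.00965). At 4 over 1 dpa the KO change passed with the share covariate (0.52, 0.00968). Within each library, PTCH1 was 0.589 to 2.90 times SMO at 0 dpa, 1.53 to 3.89 times at 1 dpa and 4.88 to 6.24 times at 4 dpa, a ratio of raw levels that was chosen after the values were seen and is given without a test. The low-share libraries held the lowest ratios of their time, and without them the ratio was 1.87 to 2.90 at 0 dpa and 2.29 to 3.89 at 1 dpa. The ratio of GLI1 to SMO was 2.60 to 3.69 in KO and 1.99 to 2.07 in WT at 0 dpa. At 4 dpa it was 3.39 to 3.90 in KO and 3.82 to 4.08 in WT. The GLI1 ratios of 0 and 4 dpa thus overlapped in KO but not in WT, and were not tested either.

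GLI1, a Gli transcription factor gene that is itself a target of the pathway, was higher at 4 dpa than at either earlier time in both genotypes. In KO fins GLI1 (ENSDARG00000101244) had signals of 942, 1203 and 974 at 0 dpa, 634, 728 and 698 at 1 dpa, and 1513, 1433 and 1549 at 4 dpa. In WT fins it had 714, 1059 and 854 at 0 dpa, 701, 742 and 764 at 1 dpa, and 1398, 1403 and 1627 at 4 dpa. All 4 dpa libraries exceeded all others. Its log2 change at 4 over 0 dpa was 0.53 in KO (1.45-fold, 95% interval 0.21 to 0.86, adjusted p = 0.00939) and 0.77 in WT (1.70-fold, 0.44 to 1.09, adjusted p = 6.55e-04). At 4 over 1 dpa it was 1.13 in KO (2.18-fold, adjusted p = 7.01e-05) and 1.00 in WT (2.00-fold, adjusted p = 3.60e-04). GLI1 fell between 0 and 1 dpa in KO, where every 1 dpa library was below every 0 dpa library (log2 -0.59, 95% interval -0.92 to -0.26, adjusted p = 0.00851). In WT the ranges at 1 and 0 dpa overlapped and the log2 change was -0.23 (adjusted p = 0.24). The difference between these changes was not called (log2 -0.36, 95% interval -0.82 to 0.10, adjusted p = 0.795). The KO fall missed the threshold when only these groups entered the fit (adjusted p = 0.0971).

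HHIP, a membrane protein that binds Hedgehog ligands and dampens the signal, was also highest at 4 dpa. In KO fins HHIP (ENSDARG00000060397) had signals of 139.6, 101 and 116 at 0 dpa, 108, 117 and 106 at 1 dpa, and 217, 182 and 219 at 4 dpa. In WT fins it had 132, 136 and 125 at 0 dpa, 118, 106 and 127 at 1 dpa, and 208, 164 and 163 at 4 dpa. The 4 dpa libraries lay above those of 0 and 1 dpa in each genotype. At 4 over 0 dpa the log2 change was 0.80 in KO (1.74-fold, adjusted p = 0.00142) and 0.44 in WT (1.35-fold, adjusted p = 0.0416), and at 4 over 1 dpa it was 0.89 in KO (adjusted p = 0.00159) and 0.59 in WT (adjusted p = 0.0312). The KO calls were kept in 17 of 17 alternatives at 4 over 0 dpa, the WT call in 9 of 17, with adjusted p-values of 0.0271 to 0.364. Without the low-share libraries the WT change was 0.42 (adjusted p = 0.188), and with the share as a covariate it was 0.27 (adjusted p = 0.364). Single libraries ended the WT call at 4 over 0 dpa when WT 0 dpa replicate 1 (adjusted p = 0.0619), 2 (0.0694) or 3 (0.111) or WT 4 dpa replicate 1 (0.155) was left out. For 4 over 1 dpa this held for WT 1 dpa replicates 1 (0.0924) and 2 (0.134) and WT 4 dpa replicates 1 (0.109) and 2 (0.0513). The interaction of genotype with 4 over 0 dpa was a log2 of 0.36 (95% interval -0.16 to 0.88), which was not called (adjusted p = 0.992).

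The ligands were counted in far fewer reads than the receptor and target genes. The tested SHH identifier, ENSDARG00000068567, had 215 reads in all 18 libraries together. In KO fins its signals were 8.70, 11.5 and 3.16 at 0 dpa, 7.14, 1.74 and 9.01 at 1 dpa, and 35.8, 44.2 and 20.3 at 4 dpa. In WT fins they were 3.91, 0 and 4.32 at 0 dpa, 7.26, 11.8 and 8.69 at 1 dpa, and 4.95, 19.9 and 39.6 at 4 dpa. In KO all 4 dpa libraries were above all earlier ones. In WT all 4 dpa libraries were above those of 0 dpa, but replicate 1, with 2 reads, lay below the 1 dpa range. Its 4.95 was also close to the highest WT 0 dpa signal of 4.32 and under the WT 4 dpa floor of about 7.4. Counting error could thus close this gap. This identifier reached a signal of 10 in 7 libraries, all at 4 dpa except KO 0 dpa replicate 2 and WT 1 dpa replicate 2. It was therefore tested only through the time at which it was high, and its tests against 4 dpa lean on the values that let it pass the filter. SHH rose at 4 over 0 dpa by a log2 of 2.04 in KO (95% interval 0.41 to 3.67, adjusted p = 0.0374) and 2.53 in WT (0.90 to 4.16, adjusted p = 0.0109), on a scale where the added 1 weighs on values this low. For 4 over 1 dpa the change was 2.44 in KO (adjusted p = 0.0278) and 0.77 in WT, which missed the threshold (adjusted p = 0.532). The interaction between them was not called (log2 1.67, 95% interval -0.64 to 3.98; adjusted p = 0.9992).

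These SHH calls were less stable than those of PTCH1 and GLI1, passing in 9 of 16 alternatives in KO and 11 of 16 in WT at 4 over 0 dpa. Without the low-share libraries the change was 2.37 in KO (adjusted p = 0.0213) and 1.81 in WT (adjusted p = 0.171). The KO call at 4 over 0 dpa also missed the threshold with a replicate block (adjusted p = 0.0505), an added value of 0.5 in place of 1 (0.0595) and the share covariate (0.0653), and the WT call with the share covariate (0.0563) and when only these groups were fitted (0.0602). In KO the call at 4 over 0 dpa was lost without KO 0 dpa replicate 1 (log2 2.18, adjusted p = 0.0508) or 3 (1.57, 0.146) and without KO 4 dpa replicate 1 (1.96, 0.089) or 2 (1.81, 0.113). In WT it was lost without WT 0 dpa replicate 2 (1.75, 0.0718) or WT 4 dpa replicate 3 (1.91, 0.0633). The KO call at 4 over 1 dpa was lost without KO 1 dpa replicate 1 (2.65, 0.0567) or 2 (1.86, 0.105) and without KO 4 dpa replicate 1 (2.35, 0.0723) or 2 (2.21, 0.0922). The other SHH identifier, ENSDARG00000038867, had 50 reads in all, no library above 9 reads and a signal of 0 in 7 libraries. Its KO signals were 2.61, 1.92 and 3.68 at 0 dpa, 2.85, 3.49 and 0 at 1 dpa, and 2.24, 0 and 0 at 4 dpa. Its WT signals were 1.56, 1.97 and 6.48 at 0 dpa, 1.45, 5.26 and 0 at 1 dpa, and 0 in all 3 libraries at 4 dpa. A count of 0 allows up to about 3 independent counts per library, which is more than 3 reads if both reads of a pair were counted.

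Of the tested Indian hedgehog identifiers only ihhb was called in any comparison, and its course differed from that of SHH. ihhb (ENSDARG00000058815) was highest at 1 dpa in both genotypes. In KO fins its signals were 17.0, 20.2 and 12.6 at 0 dpa, 47.1, 58.4 and 38.3 at 1 dpa, and 0, 10.4 and 13.5 at 4 dpa. In WT fins they were 13.7, 0 and 7.93 at 0 dpa, 47.9, 49.9 and 65.2 at 1 dpa, and 4.95, 4.98 and 0 at 4 dpa. Every 1 dpa library exceeded every other library of its genotype. Between 1 and 4 dpa ihhb fell by 3.14 on the log2 scale in KO (adjusted p = 0.0294) and fell by 4.06 in WT (adjusted p = 0.0134), where the 3 WT 4 dpa libraries held 4 reads together, so that the fitted size depends on the added 1. Between 0 and 1 dpa it rose by 3.43 in WT (95% interval 1.31 to 5.56, adjusted p = 0.0133) and the change was 1.48 in KO (-0.65 to 3.61, adjusted p = 0.293).

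The difference between these ihhb rises was not called (log2 -1.95, 95% interval -4.96 to 1.05). The WT rise at 1 dpa rested on a library at 0: without WT 0 dpa replicate 2, one of the low-share libraries, it was 2.26 (adjusted p = 0.0874), and without all low-share libraries 1.90 (adjusted p = 0.31). The KO value passed the test when only the compared groups were fitted (log2 1.48, adjusted p = 0.0254) and with DESeq2 (1.54, 0.049). The fall at 4 over 1 dpa was called in 12 of 16 alternatives in KO and 15 of 16 in WT. It missed the threshold in KO without KO 4 dpa replicate 1 (log2 -1.91, adjusted p = 0.149), KO 1 dpa replicate 1 (-3.14, 0.0843) or 2 (-2.98, 0.0684), and in WT without WT 4 dpa replicate 3 (-3.20, 0.0694).

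ihha (ENSDARG00000058733) was called in no comparison. In KO fins its signals were 72.2, 44.3 and 68.4 at 0 dpa, 81.3, 68.9 and 58.5 at 1 dpa, and 71.5, 72.7 and 39.2 at 4 dpa. In WT fins they were 43.8, 60.9 and 53.3 at 0 dpa, 40.7, 68.3 and 63.7 at 1 dpa, and 14.8, 105 and 69.3 at 4 dpa. All 6 group ranges overlapped, and the WT 4 dpa libraries, of 6 to 42 reads, spread 7.05-fold. The log2 change at 4 over 0 dpa was -0.03 in KO (95% interval -1.10 to 1.03) and -0.12 in WT (-1.19 to 0.95). The untested identifier annotated IHH had 111 reads in all. In KO fins its signals were 12.2, 8.66 and 9.47 at 0 dpa, 1.43, 3.49 and 0 at 1 dpa, and 0, 5.20 and 0 at 4 dpa. In WT fins they were 8.59, 0 and 1.44 at 0 dpa, 2.90, 6.57 and 2.90 at 1 dpa, and 14.8, 0 and 0 at 4 dpa.

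**Figure D3:**
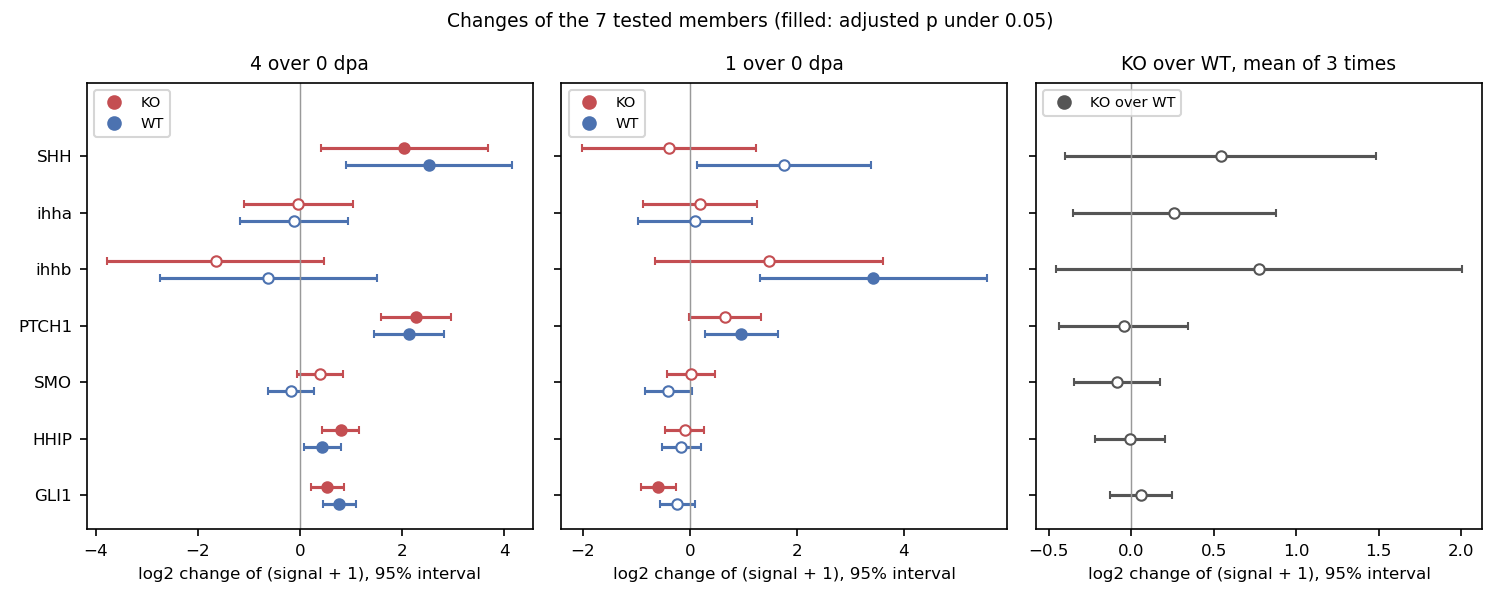
Log2 change of signal + 1 with its 95% interval from limma for the 7 tested Hedgehog members (SHH is ENSDARG00000068567): 4 over 0 dpa and 1 over 0 dpa in KO (red) and WT (blue), and KO over WT averaged over the 3 times (grey); filled points have an adjusted p under 0.05. PTCH1, HHIP, GLI1 and SHH were called at 4 over 0 dpa in both genotypes, and no interval of KO over WT lay clear of 0.

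Between genotypes no member was called. At 0, 1 and 4 dpa, 0.101%, 0.00439% and 0.0351% of all tested genes were called for KO over WT, and 0.14% for the average over times, and the KO and WT ranges of all 7 tested members overlapped at every time, where they did not overlap for 7.14%, 8.45% and 11% of all genes. The lowest adjusted p of any member was 0.912 in limma, and edgeR and DESeq2 called none either. In limma 0 of the 7 had an unadjusted p under 0.05 at any time or in the average, where 465 to 1093 of the 22779 tested genes did. Averaged over the times, the log2 difference of KO over WT was -0.05 for PTCH1 (95% interval -0.44 to 0.35), -0.09 for SMO (-0.34 to 0.17), -0.01 for HHIP (-0.22 to 0.20) and 0.06 for GLI1 (-0.13 to 0.25). For the ligands the intervals were wider, with 0.54 for SHH (-0.40 to 1.48), 0.26 for ihha (-0.35 to 0.88) and 0.77 for ihhb (-0.45 to 2.00). With all libraries and the filter on low values, the limma fit of group means alone called no interaction of genotype with time (0% of tested genes). This held for every member and every other gene, and edgeR called none either. In these 3 contrasts 596 to 950 of all tested genes, and 0 of the 7 members, had an unadjusted p under 0.05 in limma. DESeq2 called 5 genes for the interaction at 1 over 0 dpa, 1 at 4 over 0 dpa and 0 at 4 over 1 dpa, none of them a member.

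Of the wider pathway, 54 of 62 listed names matched 59 identifiers, of which 51 were tested. By 4 dpa, relative to 0 dpa, 23 rose and 4 fell in KO, and 23 rose and 1 fell in WT, with a median log2 change of 0.44 in KO and 0.37 in WT. Over all tested genes 23.3% were called higher and 25.7% lower in KO, and 25.9% higher and 29.6% lower in WT, in that comparison. Between 0 and 1 dpa 14 rose and 3 fell in KO, where 15.4% of all tested genes were called higher and 13.9% lower, and 13 rose and 6 fell in WT, where the shares were 19.1% and 21.1%. Between 1 and 4 dpa 18 rose and 5 fell in KO (11.6% of all tested genes higher and 16.2% lower), and 12 rose and 3 fell in WT (7.17% and 6.61%).

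Among the 24 tested genes that carry the signal inside the cell, 12 rose at 4 over 0 dpa in each genotype, 3 fell in KO and 1 fell in WT. Over all tested genes 23.3% were called higher and 25.7% lower in KO, and 25.9% and 29.6% in WT. Both GLI2 identifiers, which encode Gli factors that act as activators, had rises among the largest of these 24 genes. GLI2 ENSDARG00000020884 had signals of 1299, 1398 and 1539 in KO and 1069, 1313 and 1355 in WT at 4 dpa, against 292, 145 and 285 in KO and 251, 119.9 and 171 in WT at 0 dpa. It rose by a log2 of 2.61 in KO (adjusted p = 6.95e-06) and 2.84 in WT (adjusted p = 3.62e-06) at 4 over 0 dpa. GLI2 ENSDARG00000025641 had already risen at 1 dpa, by 1.50 in KO (adjusted p = 2.46e-05) and 1.84 in WT (adjusted p = 3.37e-06). GPR161 (ENSDARG00000058903), a receptor of the cilium that dampens the pathway, rose at 4 over 0 dpa by 2.13 in KO (adjusted p = 1.65e-06) and 2.23 in WT (adjusted p = 1.29e-06). KIF7, a ciliary kinesin-family regulator of Gli proteins, rose by 1.42 in KO (adjusted p = 7.3e-05) and 1.49 in WT (adjusted p = 5.0e-05). GLI3, mostly a repressor, rose by 0.62 in KO (adjusted p = 0.0012) and 0.56 in WT (adjusted p = 0.0021).

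Of the genes that release or process the ligands, 4 of 8 tested rose at 4 over 0 dpa in KO and 5 of 8 in WT, and none fell. The shares of all tested genes called higher and lower were 23.3% and 25.7% in KO and 25.9% and 29.6% in WT. DISP1, which exports the lipid-bearing ligand, rose by a log2 of 1.64 in KO (adjusted p = 6.7e-04) and 1.75 in WT (adjusted p = 3.4e-04), the WT value being 0.74 with the share covariate (adjusted p = 0.00291). HHAT, the acyltransferase that palmitoylates the ligand, rose by 1.61 in KO (adjusted p = 3.4e-04) and 1.09 in WT (adjusted p = 0.0048). SCUBE2, a secreted helper of ligand release, rose by 1.63 in KO (adjusted p = 0.0021) and 1.37 in WT (adjusted p = 0.0059).

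Of the 7 tested receptors and co-receptors outside the chosen list, 2 rose at 4 over 0 dpa in each genotype, and 1 fell in KO. The rising count is close to the share of all tested genes called higher, 23.3% in KO and 25.9% in WT. The shares called lower were 25.7% in KO and 29.6% in WT. The co-receptors that rose were BOC, by a log2 of 1.08 in KO and 0.65 in WT, and CDON, by 0.88 in KO and 0.89 in WT. The co-receptor GAS1 (ENSDARG00000067984) fell at 1 over 0 dpa, by 1.29 in KO (adjusted p = 9.32e-04) and by 1.42 in WT (adjusted p = 3.8e-04).

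Of 12 tested genes listed as targets, 5 rose in KO and 4 in WT at 4 over 0 dpa, and none fell. Among all tested genes 23.3% were called higher and 25.7% lower in KO, and 25.9% and 29.6% in WT. MYCN, a growth-promoting transcription factor with other inputs too, rose earlier, by a log2 of 2.64 at 1 over 0 dpa in KO (adjusted p = 5.84e-08) and 1.80 in WT (adjusted p = 3.94e-06). It was at 422, 457 and 358 in KO and 309, 463 and 455 in WT at 4 dpa, against 950.5, 680.4 and 689 in KO and 699.8, 731 and 755 in WT at 1 dpa. No gene of the wider list was called between genotypes in limma or edgeR. DESeq2 called 2 of 51, MYCN and CCND1 at 0 dpa, where it called 96 of all tested genes. In limma 4, 1 and 2 of the 51 had an unadjusted p under 0.05 for KO over WT at 0, 1 and 4 dpa. Of all 22779 tested genes 1093, 465 and 925 did. CCND1 is the cyclin D1 gene, and both MYCN and CCND1 were picked out after their values were seen. At 0 dpa MYCN had 117, 139 and 110.5 in KO and 202, 241 and 187 in WT, and CCND1 had 678, 544 and 598 in KO and 1091, 1072 and 944 in WT. Their KO and WT ranges did not overlap, as in 7.14% of all tested genes, and the log2 differences of KO over WT were -0.78 and -0.77 (adjusted p = 0.354 for both). At 1 and 4 dpa their ranges overlapped.

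**Figure D4:**
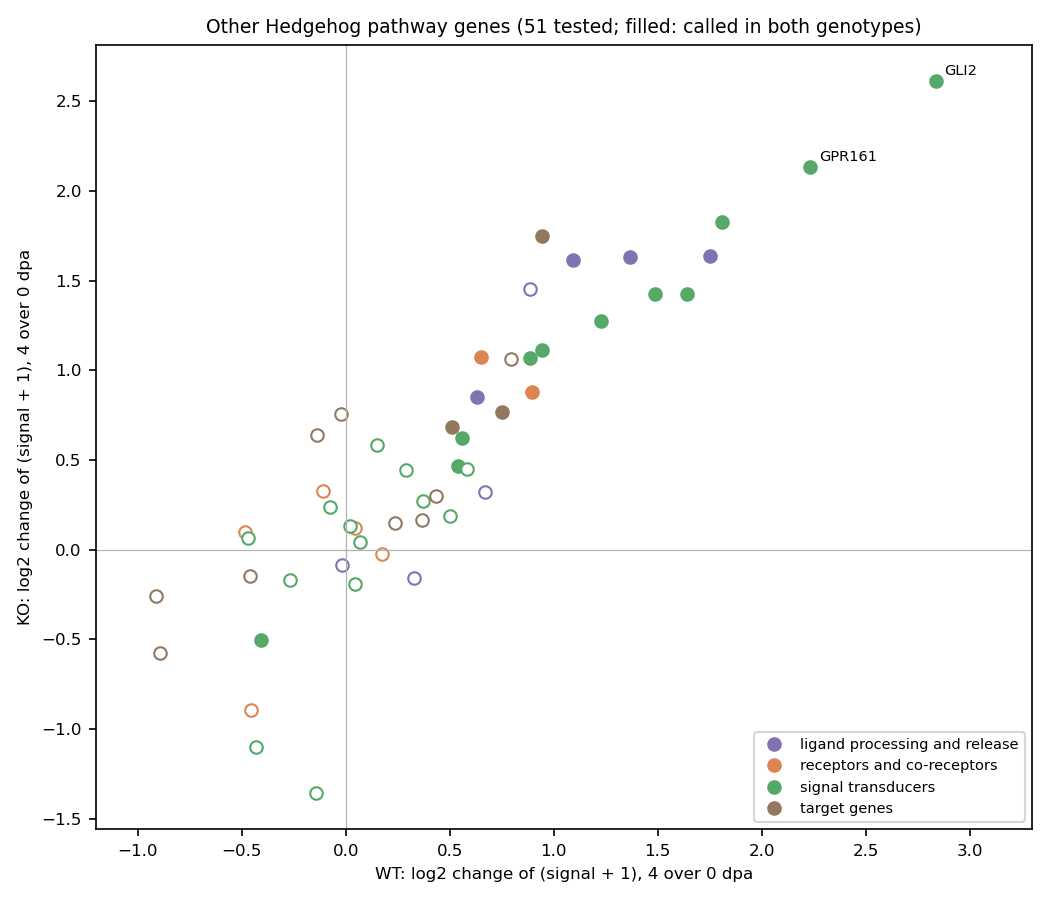
Log2 change of signal + 1 at 4 over 0 dpa for the 51 tested genes of the wider Hedgehog pathway, WT on the horizontal and KO on the vertical axis, coloured by role; filled points were called in both genotypes, and genes past 2 in size in either are named. A GLI2 identifier lay farthest out, at 2.61 in KO and 2.84 in WT, followed by GPR161 at 2.13 in KO and 2.23 in WT.

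The same rule named further genes. SCUBE2 and GREM1 (ENSDARG00000104618), a Bmp antagonist, rose at 4 over 1 dpa in KO by a log2 of 2.23 (adjusted p = 4.71e-04) and 2.43 (adjusted p = 0.0368), the SCUBE2 call holding in 17 of 17 alternatives and the GREM1 call in 9 of 16. In WT foxl1 fell by 2.26 (adjusted p = 0.0193) and prkacaa, a protein kinase A subunit, rose by 1.65 (adjusted p = 0.00509) at 1 over 0 dpa, in 11 of 16 and 15 of 17 alternatives; the lowest prkacaa change, 0.47, missed the threshold. At 4 over 1 dpa gsk3bb, a kinase of the Gli-processing machinery, fell by 1.56 in KO (adjusted p = 4.15e-04) and fell by 1.30 in WT (adjusted p = 0.00317). In WT GPR161 ENSDARG00000055659 rose by 1.16 (adjusted p = 0.00763) and PAX9, a paired-box transcription factor, by 1.06 (adjusted p = 0.00221) over the same times; these calls and those of gsk3bb held in 17 of 17 alternatives.

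Among markers of the surrounding tissues, those of actinotrichia, the collagenous fibrils of the fin fold and blastema, shifted most in summed signal relative to their 0 dpa level. Their sum was 205546 to 277790 in KO and 207549 to 283987 in WT at 4 dpa, against 2106 to 3806 in KO and 1885 to 4074 in WT at 0 dpa. It lay almost wholly in and1 and and2, which encode actinotrichia proteins and rose by a log2 of 8.11 and 8.50 in KO and 8.15 and 8.36 in WT. At 4 over 0 dpa 5 of 5 tested markers rose in KO and 2 of 5 in WT (23.3% and 25.9% of all tested genes were called higher).

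Of 9 tested bone-forming cell markers, 6 rose and none fell at 4 over 0 dpa in KO, and 4 rose and 1 fell in WT. Over all tested genes 23.3% were called higher and 25.7% lower in KO, and 25.9% and 29.6% in WT. Summed signals were 46033 to 55319 in KO and 36952 to 43492 in WT at 4 dpa, against 19789.8 to 34954 in KO and 24486 to 38742 in WT at 0 dpa. SP7, an osteoblast transcription factor, rose by a log2 of 1.60 in KO (adjusted p = 6.08e-06), and PHEX, of mineralising cells, by 1.58 in KO (adjusted p = 8.55e-07) and 1.14 in WT (adjusted p = 2.59e-05). The SP7 change in WT is not given here. No marker of this list was called between KO and WT or in an interaction, where at most 0.14% of all tested genes were. Between 0 and 1 dpa 7 of the 9 fell and 1 rose in KO (13.9% of all tested genes were called lower) and 6 fell and 1 rose in WT (21.1%). ihhb was highest at 1 dpa, and a link between its course and these markers was not tested. bglap, ALPL and a second COL10A1 identifier of the bone-forming cell list were at 0 throughout.

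Of 9 tested basal epidermis markers, 4 rose and 3 fell at 4 over 0 dpa in KO, and 3 rose and 2 fell in WT, with a median log2 change of 0.07 in KO and -0.04 in WT. The shares of all tested genes called higher and lower were 23.3% and 25.7% in KO and 25.9% and 29.6% in WT. LEF1, a Wnt-pathway factor, rose 7.73-fold in KO (adjusted p = 3.74e-09) and 6.51-fold in WT (adjusted p = 1.39e-08) at 4 over 0 dpa. On the log2 scale krt94 rose by 2.30 in KO and 1.40 in WT, and fras1 by 1.94 in KO and 2.01 in WT, while krt15 fell by 2.72 in KO and fell by 3.16 in WT, and col17a1a fell by 2.15 in KO and fell by 2.14 in WT. The summed list was 114164 to 143155 in KO and 109598 to 121033 in WT at 4 dpa, against 283390 to 517823 in KO and 310566 to 601892 in WT at 0 dpa. In nerve sheath, which lists 11 tested markers, 7 fell in KO and 8 in WT (25.7% and 29.6% of all tested genes were called lower), among them mbpa and plp1b, genes of myelin. 5 of 9 tested endothelial markers rose and none fell in each genotype (23.3% of all tested genes were called higher in KO and 25.9% in WT), KDR by 1.77 in KO and 2.43 in WT. The 4 tested immune markers summed to 2428 to 3057 in KO and 2154 to 2756 in WT at 4 dpa, against 728 to 911 in KO and 752 to 837 in WT at 0 dpa. Of these csf1ra, a receptor gene of macrophages and pigment cells, rose in both genotypes, by a log2 of 2.44 in KO and 2.68 in WT, while lyz and lck fell in both. Of all tested genes 23.3% were called higher and 25.7% lower in KO, and 25.9% and 29.6% in WT. Muscle markers summed to 438 to 521 in KO and 351 to 475 in WT at 4 dpa, against 136 to 192 in KO and 156 to 182 in WT at 0 dpa. Only 1 of 6 tested, TNNT3, was called in each genotype, as higher, where 23.3% of all tested genes in KO and 25.9% in WT were. The median log2 change of the tested muscle markers was 0.50 in KO and -0.57 in WT. The part of these shifts in tissue makeup in the changes of the Hedgehog genes was not tested.

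For each member called over time, the genes with the most similar course were those with the smallest root mean square difference of mean-centred log2(signal + 1) over the 18 libraries, among 15670 or 15671 genes. PTCH1 lay nearest to kdm6bb (0.12), VAT1 (0.126) and COL12A1 (0.137), against its own standard deviation of 1.01. GLI1, with a standard deviation of 0.48, lay nearest to TTC28 (0.136), SDK2 (0.137) and PLEKHG5 (0.164). HHIP, at 0.37, had zeb2a (0.159) and SGCD (0.164) among its closest. The sparse ligands matched less closely: SHH, at 1.41, lay nearest to eno2 (0.787), STAC (0.796) and ADORA2A (0.815), and ihhb, at 2.01, nearest to FAM167B (1.28), plekhn1 (1.29) and noxo1b (1.31). These distances describe patterns shared over libraries that also share time, depth and dominant-gene share.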

How the data were processed

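Zebrafish caudal fin RNA (KO and WT, 0, 1 and 4 dpa, 3 pools each) was sequenced as 100 bp paired reads from 20 ng of RNA, per the labels. Per the submitters' processing notes, Trim Galore 0.6.7, cutadapt 3.5, STAR 2.7.10 and the build danRer11 were used; the sources used here do not give the annotation, strand setting or counting rule. The deposited signal values are read counts per gene divided by a size factor: dividing by each library's smallest step gave whole reads for 100% of values within 0.001, and the recovered factors equalled median-of-ratios size factors. Genes overlapping on opposite strands cannot be told apart without a stated strand setting.

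limma 3.58.1 was run on genes whose signal reached 10 in 3 or more libraries (trend, two-sided, on log2(signal + 1), in R 4.3.3), with 6 group means and Benjamini-Hochberg adjustment over all 22779 tested genes. A fold change is on the log2(signal + 1) scale, where the added 1 shrinks changes of low genes. It compares means of logs, so a library at 0 can also make it larger than the ratio of mean signals. For ihhb in WT at 1 over 0 dpa the fit gave 10.8-fold, with mean signals of 54.3 at 1 dpa and 7.20 at 0 dpa. p-values measure the spread between pools only. Alternatives were edgeR 4.0.16 and DESeq2 1.42.0 on the recovered reads, other pseudocounts and filters, quantile normalization, the share of the 5 most abundant genes as a covariate, no low-share libraries, a replicate block, only the compared groups, and leaving out each library. The limma step was tested on simulated data. Members and lists were chosen with earlier results of these data known. Some genes of the lists are not reported here. All members are named; of other lists, up to 4 called genes with the largest change per comparison. Gene names came from the supplied name table, which named 29201 of 32520 identifiers. No promoter or protein sequences were at hand, so the planned promoter motif search was not done. Figures used matplotlib 3.10.9.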

Additional observations from a re-analysis of the deposited data

How the results depend on the processing

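The number of members called kept within 1.5 times of its value except as follows. At 1 over 0 dpa in KO (1 called), leaving out the low-share libraries and DESeq2 each gave 2. At 4 over 1 dpa in KO (5 called), requiring a signal of 50 gave 3, because SHH and ihhb were then not tested. At 1 over 0 dpa in WT (2 called), the filter of 50 gave 1, and the share covariate and the fit without low-share libraries each gave 0. At 4 over 0 dpa in WT (4 called), the share covariate, the fit without low-share libraries and the fit of only the compared groups each gave 2; the cause was not tested. Leaving out one library at a time gave 1 to 2 members at 1 over 0, 3 to 5 at 4 over 0 and 3 to 5 at 4 over 1 dpa in KO, and 0 to 2, 2 to 4 and 2 to 4 at these comparisons in WT. For KO over WT and for the interactions it gave 0 throughout. No called member changed sign under these alternatives; of 1380 values of uncalled members, 102 did.

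In 0 of 15 pairs of groups did every same-numbered pair of libraries deviate together with a correlation over 0.1 (range -0.615 to 0.735). For KO and WT at 0 dpa the correlations were 0.735, 0.603 and -0.219 for replicates 1, 2 and 3. Because every pair had to pass, the check cannot show whether some replicates shared a batch. A replicate block gave 3 members at 4 over 0 dpa in KO, SHH missing the threshold, and otherwise the counts of the fit without it. Over all genes, KO over WT gave 23 calls at 0 dpa, 1 at 1 dpa and 8 at 4 dpa, against 0 to 96, 1 to 20 and 4 to 29 under the other settings, and 1 to 39, 1 to 3 and 2 to 24 without single libraries. DESeq2 called 96, 20 and 15 genes for KO over WT at 0, 1 and 4 dpa, 53, 7 and 4 of them as higher, where limma called 8 of 23, 1 of 1 and 5 of 8 as higher; edgeR, on the recovered reads, called 11 of 31, 1 of 1 and 2 of 4 as higher. Interactions, 0 in limma over all genes, numbered 6 at 4 over 1 dpa with no filter, 1 at 1 over 0 dpa with the share covariate, 1 at 1 over 0 and 1 at 4 over 0 dpa without the low-share libraries, and 1 at 4 over 0 dpa without KO 0 dpa replicate 2. At 1 over 0 dpa 6680 genes were called in KO (3405 to 9199) and 9154 in WT (5400 to 10475), at 4 over 0 dpa 12657 in WT (8009 to 12798), and at 4 over 1 dpa 6351 in KO (3264 to 6200 without single libraries) and 3138 in WT (1577 to 2947 without single libraries, 2827 to 7818 otherwise). Quantile normalization moved the median of all genes by 0.12 at 4 over 0 dpa in KO, 0.11 at 1 over 0 and 0.15 at 4 over 0 dpa in WT. With 3 pools a group and under 50 reads a library for SHH, depth limits what can be said of the ligands.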
